A study of Mus musculus with 6 samples.

Results

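Transcripts that the tumour suppressor p53 is known to switch on were followed in mouse skull osteoblasts given the kinase inhibitor ZM. The 10 genes, chosen by symbol, were Cdkn1a, Ccng1, Plk2, Mdm2, Zmat3, Trp53inp1, Fas, Bax, Sesn1 and Gdf15, each of which matched 1 row among the 31401 genes of the deposited table. The cells were primary osteoblasts, the bone-forming cells, prepared by enzyme digestion of calvaria of wild-type C57BL/6 mice aged 3 days. In the ZM group (3 samples) the osteogenic induction medium held 10 μM ZM, and in the Ctrl group (3 samples) it held none; both groups were kept in that medium for 6 days and carry the same batch label. ZM is ZM-306416, named in the series title and known as an inhibitor of the VEGF and EGF receptor kinases. No label names separate cultures or animals for the 3 samples of each group, so p-values measure only how far these samples spread, possibly for technical reasons.

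p53 is a transcription factor that is held at a low level by the ubiquitin ligase Mdm2 and rises after DNA damage, oncogene activity or other stress. It then raises genes that halt the cell cycle, genes that push cells towards death, genes of DNA repair and metabolism, and Mdm2 itself, which closes a feedback loop. In the osteoblast lineage of mice, loss of p53 is known to favour bone formation and loss of Mdm2 to impair it. Many p53 targets also answer to other regulators, such as growth factor signalling, the FOXO factors or the ATF4 stress pathway.

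p53 binds a short palindrome, the half-site, usually in pairs. RefSeq promoter windows on GRCm38.p6, running from 250 bases before to 50 bases after a transcript start, were matched by symbol for 8 of the 10 genes (11 windows); none was used for Trp53inp1 and Zmat3. The published half-site consensus, which reads the same on both strands, occurred without mismatch in windows of 5 of these 8 genes, against 9.55% of the 27025 genes in the RefSeq table. They are shown because p53 binding is what defines these genes as a group. Each line gives the match in capitals with 10 bases on either side, on the strand of the gene.
Cdkn1a (chr17:29090896-29090925, plus strand, match starting 73 bases before the transcript start): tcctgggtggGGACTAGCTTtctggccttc
Cdkn1a (chr17:29090918-29090947, plus strand, 51 bases before): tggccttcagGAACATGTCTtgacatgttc
Ccng1 (chr11:40755452-40755481, minus strand, 185 bases before): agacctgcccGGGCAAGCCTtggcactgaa
Mdm2 (chr10:117710925-117710954, minus strand, 186 bases before): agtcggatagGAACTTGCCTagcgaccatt
Bax (chr7:45467080-45467109, minus strand, 201 bases before): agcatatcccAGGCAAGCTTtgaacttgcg
Sesn1 (chr10:41887256-41887285, plus strand, 173 bases before its second listed start): cttggccttcAAGCTTGTTTttgctggcct
The Cdkn1a matches lie 12 bases apart before the first of 2 listed starts. The window of its second start (chr17:29093519-29093818) held no match. When 2 half-sites, 0 to 13 bases apart and with at most 2 of 20 letters off the consensus, were required, 4 of the 8 genes matched (Cdkn1a, Ccng1, Bax and Sesn1), against 11.5% of all genes. In the second Cdkn1a line, the 10 bases after the capitals also form such a pair with the match, 0 bases apart. The 12-base pair is therefore not the only one there. A match describes the letters of these windows and does not show that p53 was bound.

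The p53 targets did not move together with ZM. Trp53inp1, Fas, Zmat3 and Sesn1 rose, by 1.31-fold to 1.81-fold, Plk2, Gdf15 and Mdm2 fell, by 1.26-fold to 1.89-fold, and Cdkn1a, Ccng1 and Bax passed no threshold. By edgeR's quasi-likelihood test, with p-values adjusted over all 17533 tested genes and a threshold of 0.05, 4 of the 10 genes were higher in ZM (22.8% of all tested genes were) and 3 were lower (22.4% of all tested genes). In either direction 45.3% of all tested genes were called, which is the background for the 7 of 10 seen here. With a minimum mean of 1 CPM, which drops scarce genes, 7342 of 13700 genes were called. Of the 10 genes, 4 were then higher and 4 lower. When scaled by library size alone 6 of the 10 were higher and 3 lower, where 5041 of all 17533 tested genes were higher and 3059 lower. By that scaling 62.2% of all calls were higher, against 50.4% with TMM scaling. The median log2 fold change was 0.08 over the 10 genes and -0.00 over all tested genes. Called changes of at least 1.5-fold were seen in 3 of the 10 (Trp53inp1, Fas and Plk2), against 14.4% of all tested genes.

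**Figure D1:**
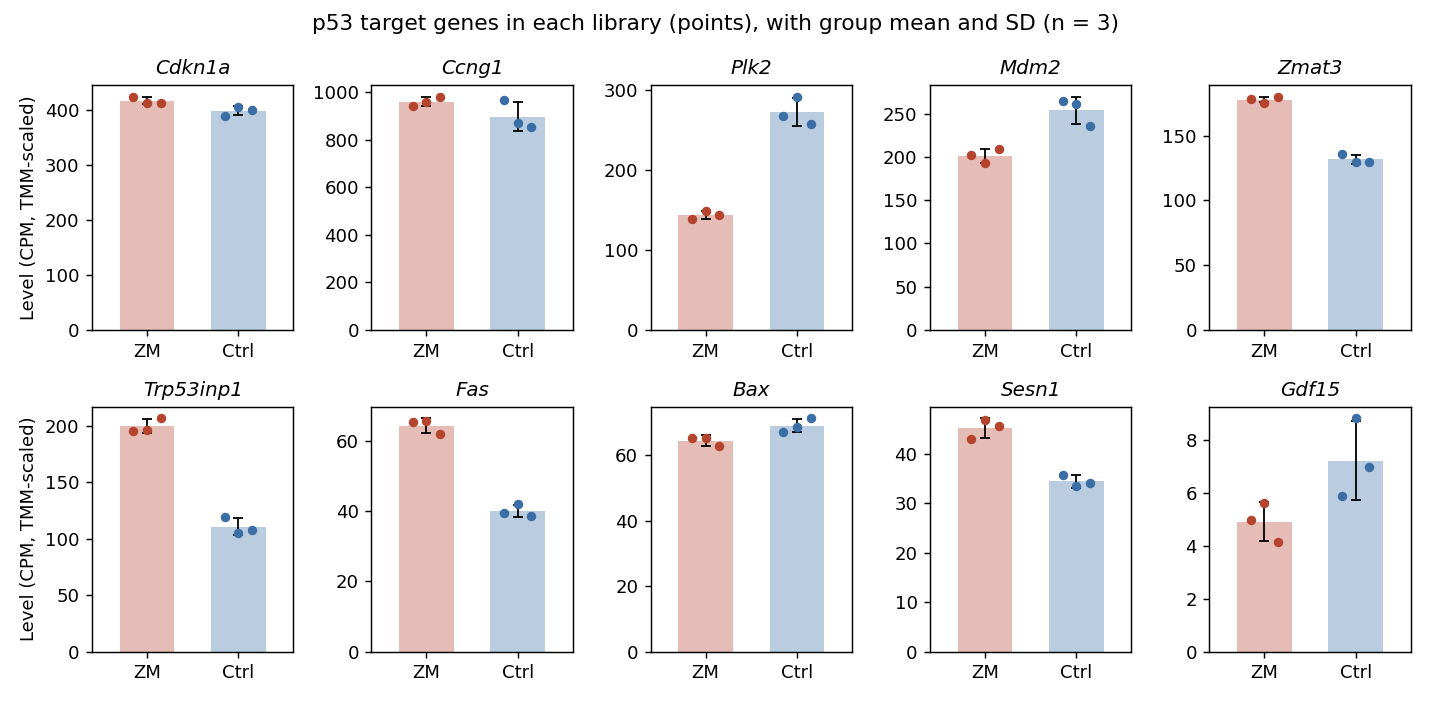
Level of each p53 target gene (CPM, on TMM-scaled library sizes) in the 3 ZM libraries, at left in each panel, and the 3 Ctrl libraries, at right; bars are group means, error bars are SD and points are libraries. Trp53inp1, Fas, Zmat3 and Sesn1 are higher in every ZM library, Plk2, Mdm2 and Gdf15 are lower in every ZM library, and the Ccng1 groups overlap.

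All 6 libraries were deep, with 42721326 to 69867931 counts, and the 10 genes passed the filter on low counts in both groups together. CPM gives a gene's share of its library whatever the gene's length, so different genes are set against each other only in FPKM, the authors' value per kilobase. On that scale Ccng1 was the highest of the 10 in ZM and in Ctrl libraries (279 ± 5.62 and 250.2 ± 17.8 FPKM; SD, n = 3 each), followed by Cdkn1a (119 ± 2.13 and 110 ± 1.76 FPKM). In ZM libraries Bax and Mdm2 came next, with overlapping ranges (41.7 ± 0.987 and 40.45 ± 1.71 FPKM), then Plk2, Fas and Trp53inp1, whose ranges overlapped between 30.6 and 33.8 FPKM. In Ctrl libraries those 5 genes did not overlap with each other, in the order Plk2 (59.4 FPKM), Mdm2 (48.9), Bax (42.9), Fas (19.0) and Trp53inp1 (16.8). Zmat3, Sesn1 and Gdf15 were the lowest 3 in both groups, and Gdf15, at 2.71 ± 0.401 FPKM in ZM and 3.81 ± 0.756 FPKM in Ctrl libraries, was also the most variable, with a coefficient of variation of 15% in ZM and 20.5% in Ctrl libraries, where the median tested gene had 5.94% in ZM and 6.37% in Ctrl libraries.

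Of the 3 cell cycle members, Plk2 fell and Cdkn1a and Ccng1 were not called. Cdkn1a (chromosome 17, 29090976 to 29100727, plus strand, GENCODE M21 on mm10) encodes p21, the inhibitor of cyclin-dependent kinases that carries out much of the p53 arrest. Cdkn1a stood at 423.5, 412.0 and 412.1 CPM in ZM libraries 1 to 3, against 388.9, 405.1 and 399.6 CPM in Ctrl libraries 1 to 3. Every ZM library was above every Ctrl library, but the log2 fold change was only 0.064 ± 0.032 (SE; 95% confidence interval -0.004 to 0.132) and did not pass (adjusted p = 0.12, edgeR). Scaled by library size alone, the log2 fold change was 0.123 and the gene passed (adjusted p = 0.0043, edgeR). It also passed on the deposited FPKM values (adjusted p = 0.01, limma), which are likewise scaled by library total. Whether p21 transcripts rose therefore depended on the scaling, and the size was small under either. An antisense transcript model overlaps 7.68% of the Cdkn1a exon length and had 73 to 119 counts per library.

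Ccng1 (chromosome 11, 40748552 to 40755311, minus strand), the cyclin G1 gene, whose product works with protein phosphatase 2A on Mdm2, stood at 944.6, 957.6 and 982.4 CPM in ZM and 967.4, 870.6 and 854.5 CPM in Ctrl libraries. Ctrl library 1 lay within the ZM range. The log2 fold change of 0.10 ± 0.04 (SE) missed the threshold (adjusted p = 0.069, edgeR). It passed without Ctrl library 1 (log2 fold change 0.157, adjusted p = 0.0015, edgeR), when scaled by library size alone (0.159, adjusted p = 0.0082), with no filter on low counts (adjusted p = 0.015) and on FPKM (adjusted p = 0.037, limma).

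Plk2 (chromosome 13, 110395046 to 110400844, plus strand) encodes a polo-like kinase of G1 phase and centriole duplication that is known both as a p53 target and as a gene induced by serum and growth factors. Plk2 stood at 138.9, 149.1 and 144.3 CPM in ZM, against 268.1, 291.9 and 257.9 CPM in Ctrl libraries. The groups were far apart, and Plk2 showed the largest change of the 10 genes, with a log2 fold change of -0.92 ± 0.04 (SE; adjusted p = 2e-10, edgeR), which 9.5% of all tested genes exceeded in size. Its paralog Plk3, also induced by serum and by p53, fell further, to 19.0 ± 2.03 CPM in ZM, against 50.9 ± 0.981 CPM in Ctrl libraries (log2 fold change -1.43 ± 0.07, adjusted p = 1.4e-10, edgeR). The mitotic kinase Plk1 was at 11.9 ± 1.23 CPM in ZM and 14.0 ± 0.148 CPM in Ctrl libraries (log2 fold change -0.23, adjusted p = 0.026, edgeR), a call lost when scaled by library size alone, on FPKM and without any of ZM library 1, ZM library 2, Ctrl library 2 or Ctrl library 3 (largest adjusted p = 0.12).

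Of the members that act back on p53, Mdm2 fell and Zmat3 rose. Mdm2 (chromosome 10, 117688875 to 117710758, minus strand), the ligase that marks p53 for degradation, stood at 202.4, 193.1 and 209.1 CPM in ZM, against 264.9, 261.2 and 236.2 CPM in Ctrl libraries. All ZM libraries were lower, with a log2 fold change of -0.33 ± 0.04 (SE; adjusted p = 2.1e-05, edgeR). Zmat3 (chromosome 3, 32334792 to 32366014, minus strand) encodes an RNA-binding zinc finger protein that acts on splicing and on the stability of target RNAs. Zmat3 stood at 178.2, 175.5 and 180.0 CPM in ZM, against 135.9, 130 and 129.5 CPM in Ctrl libraries, and the groups were well apart (log2 fold change 0.43 ± 0.03, adjusted p = 2.6e-08, edgeR).

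The transcript of p53 itself, Trp53, stood at 89.3, 87.1 and 82.8 CPM in ZM and 85.8, 97.2 and 86.8 CPM in Ctrl libraries, with overlapping groups (log2 fold change -0.06 ± 0.05, adjusted p = 0.36, edgeR). p53 is controlled largely as a protein, which these libraries do not measure. The Mdm2 to Trp53 ratio of FPKM, which does not depend on how libraries are scaled, was 1.80, 1.76 and 2.01 in ZM libraries, against 2.46, 2.14 and 2.17 in Ctrl libraries. Each ZM library was below each Ctrl library, and the exact two-sided permutation test gave p = 0.1, the smallest that 3 samples against 3 allow. Mdm4, which binds p53 and blocks its activity, rose (106 ± 3.07 CPM in ZM and 90.7 ± 2.57 CPM in Ctrl libraries, log2 fold change 0.23 ± 0.04, adjusted p = 1.3e-04). Cdkn2a, the locus of p16 and of the Mdm2 inhibitor p19ARF, fell to 35.2 ± 0.599 CPM in ZM, against 53.02 ± 1.33 CPM in Ctrl libraries (log2 fold change -0.59 ± 0.04, adjusted p = 5.7e-09, edgeR).

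Of 21 tested genes that encode p53, its relatives and its regulators, 5 were higher and 6 lower in ZM (23.8% and 28.6%, near the shares of all tested genes). The damage kinase genes Chek2 (log2 fold change -0.51 ± 0.06) and Chek1 (-0.38 ± 0.12) fell, as did the chromatin cofactor gene Ing1 (-0.26 ± 0.05), while the mesenchymal factor Twist1, which restrains p53 (0.46 ± 0.07), the DNA-dependent kinase Prkdc (0.21 ± 0.05) and the acetyltransferase Ep300 (0.16 ± 0.04) rose. The ribosomal protein genes Rpl5 (-0.16 ± 0.04) and Rpl11 (-0.23 ± 0.07), named after their values were seen, were lower as well. The Rpl11 call was close to the threshold (adjusted p = 0.041, edgeR), and its groups overlapped. Atm, the kinase that signals DNA breaks, was slightly higher (0.15 ± 0.05, adjusted p = 0.031, edgeR). The Atm call ended with DESeq2 and without ZM library 3, Ctrl library 2 or Ctrl library 3, and the Chek1 call ended on FPKM and without ZM library 1 or Ctrl library 3 (largest adjusted p = 0.18 and 0.087). Usp7, the deubiquitinase of Mdm2 and p53, was at 130 ± 5.53 CPM in ZM and 124 ± 1.35 CPM in Ctrl libraries, without overlap (adjusted p = 0.15, edgeR), and passed when scaled by library size alone (adjusted p = 0.011) and on FPKM (adjusted p = 0.028, limma). The p53 relatives were scarce, with Trp63 at 0.513 CPM in ZM and 0.463 CPM in Ctrl libraries (adjusted p = 0.71, edgeR) and Trp73 at 2 to 3 counts per ZM library and 1 to 3 counts per Ctrl library.

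The 3 death-linked members parted, as Trp53inp1 and Fas rose and Bax did not pass. Trp53inp1 (chromosome 4, 11156431 to 11174379, plus strand) encodes a stress protein that works with p53 and in autophagy. Trp53inp1 stood at 195.8, 196.7 and 206.8 CPM in ZM, against 119.4, 105.2 and 107.8 CPM in Ctrl libraries. The groups were widely separated, and this was the largest rise of the 10 genes (1.81-fold, log2 fold change 0.85 ± 0.05, adjusted p = 4.3e-10, edgeR).

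Fas (chromosome 19, 34290666 to 34327772, plus strand) encodes the death receptor that triggers caspase 8 when bound by Fas ligand. Fas stood at 65.3, 65.7 and 61.9 CPM in ZM, against 39.4, 42.1 and 38.7 CPM in Ctrl libraries, again without overlap (1.6-fold, log2 fold change 0.68 ± 0.05, adjusted p = 2.5e-09, edgeR). Of 12 other tested genes of that pathway 1 was higher (the caspase inhibitor Xiap, 0.16 ± 0.04) and 4 were lower, namely Casp8 (-0.39 ± 0.04), its decoy Cflar (-0.18 ± 0.04), Bid (-0.16 ± 0.04) and Ripk1 (-0.12 ± 0.04). These are 8.33% higher and 33.3% lower, against 22.8% and 22.4% of all tested genes. Scaling by library size alone gave 3 higher and 2 lower, where 5041 of all 17533 tested genes were higher and 3059 lower. FPKM gave 3 higher and 1 lower, where 3960 of all 12205 genes were higher and 2348 lower with a pseudocount of 1. The calls for Cflar and Ripk1 ended on FPKM, and that for Ripk1 also by library size scaling and without ZM library 2 or Ctrl library 3 (largest adjusted p = 0.19). The ligand gene Fasl had 0 to 2 counts in every library, below the floor of 3 counts (0.0429 to 0.0702 CPM).

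Bax (chromosome 7, 45461697 to 45466898, minus strand), the BCL2 family protein that opens the outer mitochondrial membrane, stood at 65.33, 65.35 and 62.6 CPM in ZM, against 67.2, 68.7 and 71.2 CPM in Ctrl libraries. All ZM libraries were lower, yet the log2 fold change of -0.10 ± 0.04 (SE; 95% confidence interval -0.18 to -0.01 before any adjustment) just missed the threshold (adjusted p = 0.054, edgeR). It passed with RLE size factors (adjusted p = 0.044), with a minimum mean of 1 CPM (adjusted p = 0.041) or without Ctrl library 1 (adjusted p = 0.037), and was -0.040 when library size alone set the scale (adjusted p = 0.46). Another annotated gene on the same strand, Gm45808, shares 12.2% of the Bax exon length, so reads there cannot be assigned for certain. Gm45808 has no entry among the deposited genes, so whether Bax counts were affected is not known. The Bax to Bcl2 ratio of FPKM was 33.0, 31.7 and 32.0 in ZM libraries and 33.0, 28.8 and 30.2 in Ctrl libraries, with overlapping groups (exact two-sided permutation p = 0.4).

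In the BCL2 family, 5 of 15 tested genes were higher and 6 lower in ZM (33.3% and 40.0%, against 22.8% and 22.4% of all tested genes). The BH3-only genes, whose products set Bax free or activate it, were split. Bmf (log2 fold change 0.99 ± 0.14), Bcl2l11 (0.78 ± 0.07), Bbc3 (0.48 ± 0.08) and Pmaip1 (0.23 ± 0.05) rose, Bid (-0.16 ± 0.04) and Bik (-0.71 ± 0.27, with overlapping groups) fell, and Bad (-0.12, adjusted p = 0.16, edgeR) was not called. Bbc3 and Pmaip1, known as PUMA and NOXA, are themselves p53 targets. The survival genes were split as well. Bcl2a1d (-1.54 ± 0.25, at 0.615 CPM in ZM and 1.76 CPM in Ctrl libraries), Bcl2l1 (-0.28 ± 0.04) and Mcl1 (-0.14 ± 0.04) fell, Bcl2l2 (0.20 ± 0.04) rose, and Bcl2 (-0.18, adjusted p = 0.069) and Bcl2a1b (-0.25, adjusted p = 0.3) were not called by edgeR. The Bax relative Bak1 fell (-0.33 ± 0.06). Bik, Bad, Mcl1, Bcl2l2, Bcl2 and Bcl2a1b were named after their values were seen. Bcl2a1d belongs to a cluster of near-identical copies, so its reads may be split among them. The call for Bid ended with library size scaling, on FPKM and without Ctrl library 2 (largest adjusted p = 0.075). With library size scaling or on FPKM, 3 family genes were lower. Of all tested genes, 3059 of 17533 were lower with library size scaling, and 2348 of 12205 on FPKM with a pseudocount of 1.

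Of the metabolic and secreted members, Sesn1 rose and Gdf15 fell. Sesn1 (chromosome 10, 41809935 to 41908424, plus strand) encodes a sestrin, a leucine-sensing brake on the growth kinase mTORC1. Sesn1 stood at 43.1, 46.95 and 45.7 CPM in ZM, against 35.9, 33.5 and 34.1 CPM in Ctrl libraries, without overlap (1.31-fold, log2 fold change 0.39 ± 0.05, adjusted p = 4.1e-06, edgeR). Its paralog Sesn2, a target of both p53 and ATF4, rose more (1.56-fold, log2 fold change 0.65 ± 0.04, adjusted p = 1.6e-09, edgeR), with 56.6, 56.8 and 57.0 CPM in ZM, against 36.2, 35.4 and 37.3 CPM in Ctrl libraries.

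Gdf15 (chromosome 8, 70629393 to 70632456, minus strand) encodes a stress-induced cytokine of the TGF-beta superfamily that is known to act on appetite through a brainstem receptor. Gdf15 stood at 4.96, 5.63 and 4.16 CPM in ZM, against 5.88, 8.815 and 6.97 CPM in Ctrl libraries. The groups did not overlap, but ZM library 2 and Ctrl library 1 were close. The log2 fold change was -0.57 ± 0.15 (SE; adjusted p = 0.01, edgeR), and the gene missed the threshold on log2 FPKM (adjusted p = 0.057 with a pseudocount of 1, limma). Its size was -0.393 without Ctrl library 2, still called (adjusted p = 0.031, edgeR).

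**Figure D2:**
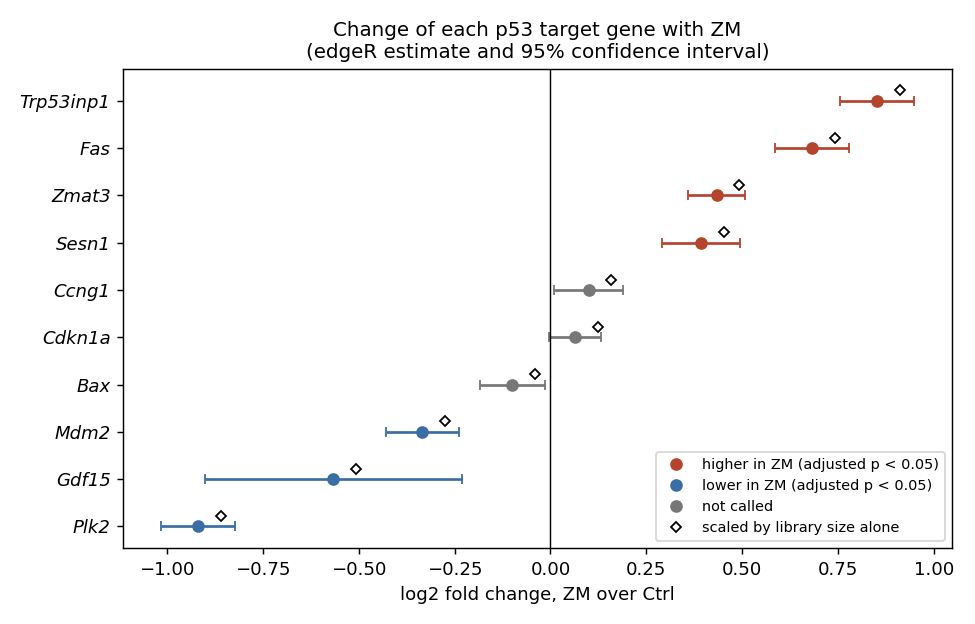
log2 fold change of each p53 target gene, ZM over Ctrl, with its 95% confidence interval (circles, coloured by edgeR call), and the estimate when scaled by library size alone (diamonds). The genes spread from -0.92 (Plk2) to 0.85 (Trp53inp1), and the other scaling moves all of them slightly towards higher in ZM.

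In all, 9 of the 10 genes had groups that did not overlap, where 54.2% of all tested genes had such groups, and Ccng1 was the exception. The summed level of the 10 transcripts was 2280 ± 25.7 CPM in ZM and 2215 ± 78.3 CPM in Ctrl libraries (SD, n = 3 each), with overlapping groups. Most of that sum is Ccng1 and Cdkn1a. Of the 5 genes with a half-site near a start, Sesn1 rose, Mdm2 fell and Cdkn1a, Ccng1 and Bax were not called, and of the 3 with a window but no match, Fas rose and Plk2 and Gdf15 fell. Over all tested genes with a window, 27.8% of those with a half-site were higher and 25.0% lower. Without one, 25.1% were higher and 24.2% lower. Sequence outside the windows was not searched, so a gene without a match may still hold a p53 site.

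A longer list of 40 other p53 targets, all tested, held more higher than lower genes. Of these, 23 were higher in ZM (57.5%, against 22.8% of all tested genes) and 6 lower (15%, against 22.4%), with a median log2 fold change of 0.22. Most of these rises were small. With a minimum of 1.5-fold, 3 of the 40 were higher and 1 lower, where 1229 of all 17533 tested genes were higher and 1299 lower. The members above and this list were both chosen with earlier results of these data known. The largest rises were Trp53cor1, the noncoding RNA next to Cdkn1a (1.00 ± 0.21, at 1.52 CPM in ZM and 0.751 CPM in Ctrl libraries), Sesn2, the damage recognition gene Ddb2 (0.61 ± 0.15), the mTOR inhibitor Ddit4l (0.58 ± 0.07), the repair endonuclease Ercc5 (0.51 ± 0.05) and the PIDDosome gene Pidd1 (0.49 ± 0.08). The repair genes Xpc (0.31) and Polk (0.39), chosen after their values were seen, rose as well.

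The falls among these other targets were led by Plk3, followed by Tnfaip8 (-0.53 ± 0.05), the glycolysis regulator Tigar (-0.29 ± 0.06), Sertad1 (-0.25 ± 0.06), the desmosome gene Perp (-0.23 ± 0.06) and the apoptosome gene Apaf1 (-0.20 ± 0.04). The Perp call was lost on FPKM (adjusted p = 0.056, limma). Gadd45a and Ppm1d, other widely known targets, were not called. Gadd45a stood at 24.7 ± 1.80 CPM in ZM and 24.2 ± 3.39 CPM in Ctrl libraries (adjusted p = 0.83, edgeR), and the p53 phosphatase Ppm1d stood at 13.8 ± 0.585 CPM in ZM and 12.5 ± 0.833 CPM in Ctrl libraries (adjusted p = 0.16, edgeR). Ppm1d passed when scaled by library size alone (adjusted p = 0.043) and on FPKM (adjusted p = 0.037, limma).

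**Figure D3:**
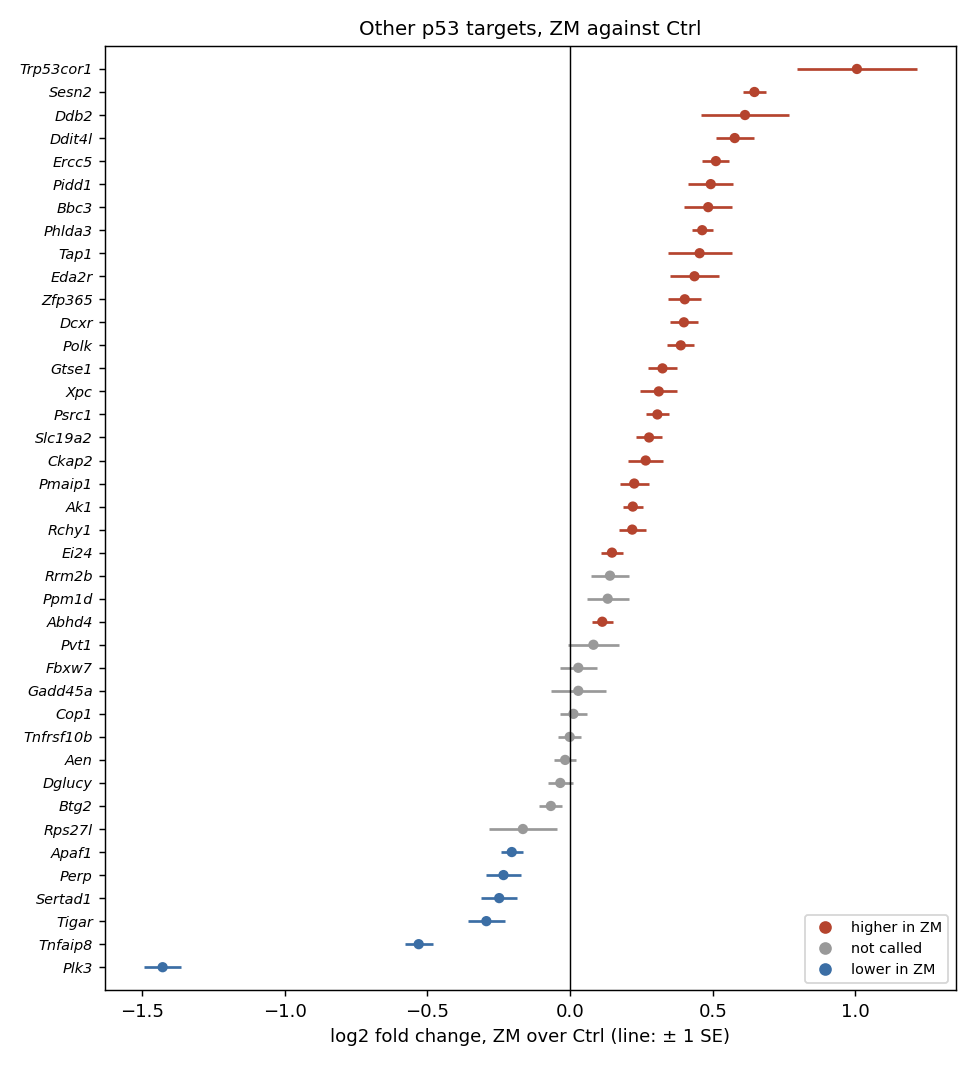
log2 fold change, ZM over Ctrl, of the 40 other p53 targets, sorted, with lines of 1 SE; red genes were higher in ZM, blue genes lower and grey genes not called (edgeR, adjusted over all tested genes). The 23 higher genes reach from 0.11 (Abhd4) to 1.00 (Trp53cor1), and Plk3 is the lowest at -1.43.

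p53 lowers many cell cycle genes through p21 and the DREAM repressor complex. Of 26 such genes, 18 were lower in ZM and 0 higher (69.2% lower, against 22.4% of all tested genes), by a median log2 fold change of -0.22, while Cdkn1a itself was not called. The proliferation marker Mki67 fell to 122 ± 6.69 CPM in ZM, against 169 ± 4.71 CPM in Ctrl libraries, and Ccnb1 (-0.37 ± 0.06) and Cdc25c (-0.42 ± 0.12) fell by similar amounts. Without Ctrl library 3 the number of lower genes was 11, and on FPKM it was 9. Of all tested genes, 3468 of 17767 were lower without Ctrl library 3, and 2348 of 12205 on FPKM with a pseudocount of 1. The p53 targets Gtse1 (0.32), Psrc1 (0.31) and Ckap2 (0.26), named here after their values were seen, are also mitotic genes and rose.

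Markers of other cell types were detected and moved with ZM, and bulk RNA cannot tell fewer cells of a type from less RNA per cell. The osteoblast genes Runx2 (38.9 to 42.1 CPM in ZM and 31.1 to 34.3 CPM in Ctrl libraries) and Col1a1 (8570 to 9080 CPM in ZM and 8620 to 9290 CPM in Ctrl libraries) were present throughout, as were the macrophage genes Adgre1 (308 to 347 CPM in ZM and 481 to 532 CPM in Ctrl libraries) and Csf1r (362 to 396 CPM in ZM and 467 to 501 CPM in Ctrl libraries). Alpl, also an osteoblast gene, differed far more than Runx2 and Col1a1, at 29.8 to 31.5 CPM in ZM and 2.27 to 2.79 CPM in Ctrl libraries. The shares of called markers below stand against 22.8% higher and 22.4% lower over all tested genes. Of 20 macrophage markers 17 were lower and 2 higher in ZM (85% and 10%), and their summed level was 12004 to 13258 CPM in ZM and 22139 to 23136 CPM in Ctrl libraries. Of 13 osteoclast markers 10 were higher and 1 lower (76.9% and 7.69%), with sums that did not overlap (1536 to 1579 CPM in ZM and 1014 to 1057 CPM in Ctrl libraries). Among them, Ctsk stood at 562 to 592 CPM in ZM and 411 to 450 CPM in Ctrl libraries. Dcstamp stood at 5.43 to 6.24 CPM in ZM and 0.262 to 0.472 CPM in Ctrl libraries. Calcr was scarce, with 44 to 48 counts per ZM library and 2 to 8 per Ctrl library. Osteoblast markers were 6 higher and 2 lower of 12 tested (50% and 16.7%), and their sum was 25288 to 26124 CPM in ZM and 34545 to 35640 CPM in Ctrl libraries. That lower sum rests on Spp1, named after its values were seen and also made by macrophages and osteoclasts, which stood at 4853 ± 255 CPM in ZM and 15170 ± 454 CPM in Ctrl libraries. Endothelial markers summed to 8.1 to 9.0 CPM in ZM and 15.6 to 18.4 CPM in Ctrl libraries (5 of 7 tested lower, 71.4%, and 0 higher). Adipocyte markers summed to 325.8 to 360.8 CPM in ZM and 122.4 to 125.0 CPM in Ctrl libraries (3 of 4 tested higher, 75%, and 1 lower, 25%), with the defining genes Adipoq at 0 counts in all libraries but ZM library 1 and Plin1 at 0 to 2 counts. The part of these cell types in the changes of the p53 targets was not tested.

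**Figure D4:**
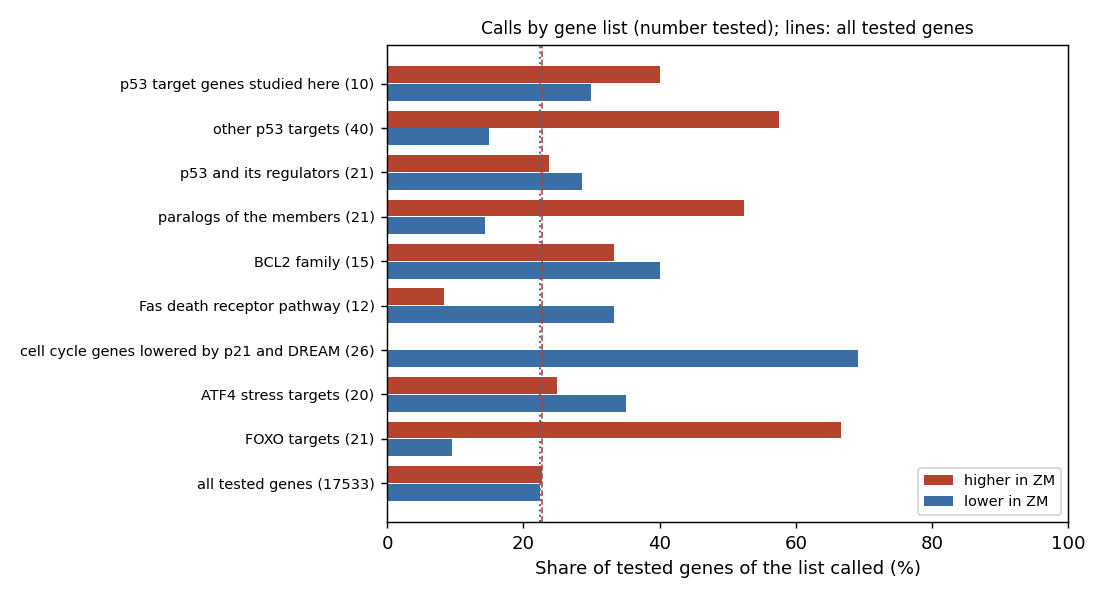
Share of the tested genes of each list called higher (red, upper bar) or lower (blue, lower bar) in ZM, in percent, with the number tested in brackets and lines at the shares of all tested genes (22.8% and 22.4%). Other p53 targets reach 57.5% higher, and the cell cycle genes reach 69.2% lower with 0 higher.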

How the data were processed

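Per the file headers, the deposited table gives a whole-number read count and an FPKM value per gene and sample. DESeq2, featureCounts 2.0.3, Subread, HISAT2 2.2.1 and the mm10 build are listed in the submitters' processing notes. Annotation, strand setting and multi-mapping treatment were not given in the sources used here. Each deposited FPKM was found to be the count divided by library total and one gene length, whole within 0.01 bases for 100% of genes. That length equals the GENCODE M21 exon length for 98.2% of the genes found there.

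In R 4.3.3, edgeR 4.0.16 compared the counts (filterByExpr, TMM, robust quasi-likelihood F test, Benjamini-Hochberg over 17533 genes, threshold 0.05). SE is the absolute log2 fold change over the square root of F. The test was checked on simulated data. Alternatives used DESeq2 1.42.0, limma 3.58.1 on log2(FPKM + 1) or log2(FPKM + 0.1) for genes with a mean of at least 1 FPKM, other scalings, filters and a 1.5-fold minimum. BLAST 2.17.0 (97% identity over 100 bases) looked for near-identical transcripts. Floors are 3 counts, 0.0429 to 0.0702 CPM, and cover counting error only.

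The genes and lists were chosen with earlier results of these data known. All 10 targets, a fixed set of p53 regulators, and up to 4 (other p53 targets: 6) risen and fallen genes per list with the largest change among called genes with groups that do not overlap are named.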

Additional observations from a re-analysis of the deposited data

How the results depend on the processing

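Trp53inp1, Fas, Zmat3, Sesn1, Plk2 and Mdm2 kept their direction and call under all 14 refits. Gdf15 kept its call under 12 of 14. Cdkn1a passed under 3 of 14, Ccng1 under 5 and Bax under 3. The 3 for Cdkn1a were library size alone and both FPKM fits, which all scale by library total and are not separate evidence. No sign of pairing by replicate number was seen, as deviations of same-numbered libraries from their group means correlated at -0.04, 0.058 and -0.015. That does not show whether the samples were prepared in pairs. With a replicate block 4 of the 10 p53 targets were higher and 3 lower, and 3897 of all genes were higher and 3855 lower.

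Leaving out each library in turn gave 4 to 5 p53 targets higher and 3 to 4 lower, 21 to 23 other targets higher, 3469 to 3842 genes higher and 3344 to 3870 lower, and 11 to 18 of the p21 and DREAM genes lower.

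Requiring 1.5-fold left 1229 of all 17533 tested genes higher and 1299 lower, 14.4% in either direction. It left 2 of 10 p53 targets higher and 1 lower, and 3 of 40 other targets higher and 1 lower. Of 21 regulators 0 were higher and 1 lower, and of 21 paralogs 4 were higher and 1 lower. Of 15 BCL2 family genes 2 were higher and 2 lower, and of 12 Fas pathway genes 0 in either direction. Of 26 p21 and DREAM genes 0 were lower. Of 20 ATF4 targets 2 were higher and 2 lower, and of 21 FOXO targets 4 were higher and 1 lower.

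On log2 FPKM, of 12205 genes 3960 were higher and 2348 lower with a pseudocount of 1. With 0.1, 3955 were higher and 2345 lower. Both pseudocounts gave 3 regulators, 3 BCL2 family genes, 1 Fas pathway gene and 9 p21 and DREAM genes lower. They gave 3 Fas pathway genes and 8 ATF4 targets higher. In the main fit those lists held 21 regulators, 15 BCL2 family, 12 Fas pathway, 26 p21 and DREAM and 20 ATF4 genes. Library size alone gave 3 BCL2 family genes and 2 Fas pathway genes lower, and 3 Fas pathway genes and 8 ATF4 targets higher. Of all 17533 tested genes it called 5041 higher and 3059 lower. It raised the share of calls that were higher to 62.2%, against 50.4% with TMM. For Trp53 the log2 fold change, -0.06 with TMM, was 0.001 with library size alone and 0.003 on FPKM, and ran from -0.091 to 0.001 when each library was left out. For Gadd45a it ran from -0.037 to 0.154, and was -0.032, -0.019 and -0.037 without ZM library 1, Ctrl library 1 or Ctrl library 3. The causes were not tested. Depth limits Fasl, Trp73 and other genes at a few counts, but imprecise estimates were not confined to these. The SE of the log2 fold change was 0.31 for Trp63, at 23 to 28 counts per library. It was 0.27 for Bik, at 30 to 117 counts per library. A gene that was not called is therefore not shown to be unchanged.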

Other observations

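Of 21 tested paralogs of the p53 targets, 11 were higher and 3 lower in ZM (52.4% and 14.3%, against 22.8% and 22.4% of all tested genes). Cdkn1c, the p57 inhibitor of the same kinases as p21 and an imprinted gene, rose 4.70-fold, to 3.82 ± 0.334 CPM in ZM, against 0.805 ± 0.0821 CPM in Ctrl libraries (log2 fold change 2.23 ± 0.17, adjusted p = 1.1e-08, edgeR). Its relative Cdkn1b (p27), chosen after its values were seen, stood at 30.2 CPM in ZM and 23.3 CPM in Ctrl libraries (log2 fold change 0.38, adjusted p = 2.6e-05). Gdf10, a TGF-beta superfamily gene like Gdf15, rose 22.3-fold, to 16.3 ± 1.64 CPM in ZM, against 0.709 ± 0.141 CPM in Ctrl libraries (adjusted p = 7.8e-14), where Gdf15 fell, and Gdf6 rose by 0.62 ± 0.08 on the log2 scale.

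Lists of 2 other regulators that share targets with p53 were read as well. Of 21 FOXO targets 14 were higher and 2 lower (66.7% and 9.52%, against 22.8% and 22.4% of all tested genes). Klf15 (1.42 ± 0.16), the PI3K inhibitor gene Pik3ip1 (1.35 ± 0.08), Pdk4 (1.15 ± 0.10) and Bcl2l11 rose, and Txnip (-0.66 ± 0.04) and Rictor (-0.22 ± 0.04) fell. ATF4 targets were mixed, with 5 of 20 higher and 7 lower (25% and 35%). Atf3 (0.99 ± 0.11), Sesn2, Trib3 (0.43 ± 0.12) and Phgdh (0.29 ± 0.05) rose, and the cystine transporter Slc7a11 (-1.78 ± 0.18), Nupr1 (-0.93 ± 0.05), Psat1 (-0.55 ± 0.05) and Sqstm1 (-0.42 ± 0.09) fell. The Sqstm1 call ended without ZM library 2 or ZM library 3 (largest adjusted p = 0.065).

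The p53 half-site was found in promoter windows of 11 of 31 other p53 targets with a window (35.5%, against 9.55% of all genes in the RefSeq table). Of these 11, 7 were higher and 0 lower in ZM, and of the 20 without a match 12 were higher and 4 lower. Over all tested genes with a window, 27.8% of the 1002 with a half-site and 25.1% of the 10940 without one were higher, and 25.0% and 24.2% were lower. These shares are descriptions and were not tested.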
